A study of Mus musculus with 6 samples.

Results

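The genes described here are the 47 DNA replication and S-phase genes of a mouse pancreatic tumour organoid series. The list was drawn up with earlier results of these data known. Its members were picked by gene symbol from 54453 Ensembl genes, with no cut on a measured value. They fall into 12 origin licensing genes, 26 replication fork genes, 4 genes of nucleotide supply and 5 regulators of S-phase entry and of the copying of DNA methylation. RNA was sequenced from 3 organoid lines of the KPC kind, a mouse model of pancreatic ductal adenocarcinoma (PDAC), named T91, T113 and T118. All 6 cultures were KPF/FC by genotype, which no label spells out, and were grown in the matrix gel Matrigel. Each line gave 1 library with a short hairpin RNA against Renilla luciferase, the control, and 1 with hairpin #5523 against Scrib, a scaffold protein at the basal and lateral membrane of epithelia, so each hairpin had 3 libraries. T91 was from a female and at passage 10 with either hairpin, and T118 and T113 were from males and at passages 11 and 13. A single hairpin stands for the knockdown, and the labels differ on whether it came in by virus or by plasmid. With 1 library per line and hairpin, the error terms below rest on the spread of the response between lines. They are drawn towards the error of other genes, so they are not that spread alone. A difference in response between 1 line and another has no test.

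DNA is copied once per cell cycle, in ordered steps. In G1 the origin recognition complex, with Cdc6 and Cdt1, loads the ring-shaped helicase Mcm2 to Mcm7 onto origins (licensing), and geminin (Gmnn) blocks Cdt1 once S phase has begun. Cdc45 and the GINS proteins then turn the ring into an active helicase, DNA polymerases alpha, delta and epsilon copy the strands, and ribonucleotide reductase, thymidylate synthase and thymidine kinase supply the building blocks. Many of these genes are known targets of the E2F transcription factors, which are released when cyclin-dependent kinases phosphorylate the retinoblastoma protein. Their transcripts are widely used as a measure of how much of a tumour culture is cycling.

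E2F proteins bind a short GC-rich word, so stretches of promoter that hold such a word are shown for genes where it lies upstream of the RefSeq start and in no exon of the GENCODE annotation. RefSeq promoters (GRCm38.p6, 250 bases before to 50 after the start) were found for 38 of the 47 genes and not for Ccne2, Gins1, Gins2, Gins4, Gmnn, Mcm4, Pole, Prim2 and Rfc2. Of the 38, 16 (42.1%) held at least 1 of the words TTTCCCGC, TTTCGCGC, TTTGCCGC or TTTGGCGC on either strand, against 4.72% of the genes tested that have a promoter and 2.6% of all 27025 genes that have one. A gene counts once, whichever of its windows holds the word, and the 38 genes have 47 windows. The word was found for 7 of 10 licensing genes, 7 of 20 fork genes, 2 of 4 regulators and 0 of 4 nucleotide genes. Below, capitals mark the word within 20 bases on each side, read 5′ to 3′ along the gene's strand, and 2 words can overlap, as they do in Mcm5 and at the farther site of Mcm6. The Cdc6 and Uhrf1 stretches lie within the span of the annotated gene, which has transcripts that start further upstream.
Mcm5 (chr8:75109336-75109387, plus strand): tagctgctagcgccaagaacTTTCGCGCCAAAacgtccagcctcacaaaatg
Mcm6 (chr1:128359725-128359772, minus strand): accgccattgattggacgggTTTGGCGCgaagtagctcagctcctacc
Mcm6 (chr1:128359784-128359835, minus strand): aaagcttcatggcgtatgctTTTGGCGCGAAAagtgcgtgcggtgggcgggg
Cdc6 (chr11:98907993-98908040, plus strand): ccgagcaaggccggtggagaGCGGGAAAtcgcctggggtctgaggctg
Pola1 (chrX:93632266-93632313, minus strand): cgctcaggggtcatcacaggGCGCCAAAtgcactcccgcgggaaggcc
Uhrf1 (chr17:56304108-56304155, plus strand): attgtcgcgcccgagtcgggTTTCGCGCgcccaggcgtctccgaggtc
The CCAAT word, the motif of the NF-Y factor, was found on either strand for 24 of the 38 genes (63.2%), against 43.6% of the genes tested that have a promoter. A match of letters is a description and not a bound site.

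The 6 libraries held between 24035559 and 36235773 estimated counts, so that 1 count was worth 0.0269 to 0.0421 CPM (counts scaled to a common library size, with TMM scaling). All 47 genes passed the filter on low counts that left 14169 genes, and the lowest count of any of them in a library was 316 (Gins3). Scrib itself stood at 177, 157 and 158 CPM in the Renilla libraries of T91, T113 and T118 and at 29.7, 35.0 and 30.0 CPM in the Scrib libraries. Its log2 fold change of -2.38 (standard error 0.12, adjusted p of 0.00582 by the quasi-likelihood F-test of edgeR, Benjamini-Hochberg adjusted) was the single call among all genes tested. The label of tumour epithelium fits its markers, since 8 epithelial genes summed to between 7576 and 13250 CPM. The sums were 1.11 to 7.70 CPM for 8 fibroblast markers, 2.28 to 5.09 for 8 leukocyte markers and 0.201 to 1.68 for 5 endothelial markers. Lum was at 0 in all 6 libraries, and the leukocyte marker Ptprc and the endothelial marker Cdh5 stayed at or under 0.10 and 0.04 CPM. The leukocyte marker Cd68 held most of its sum, at 2.08 to 4.06 CPM, and the endothelial marker Tek reached 1.39 CPM in the Scrib library of T118. The Scrib library of T91 stood apart in 2 ways. Its fibroblast sum was the highest, and its long transcripts were low against its short ones. With each gene centred on its mean over the libraries, the median of genes with transcripts of at least 3500 bases minus that of genes under 1500 bases was -0.314 there, against -0.0913 to 0.164 in the other 5. The main counts and the group medians are therefore given with and without it. So are the fitted values of the proliferation marker Mki67 and of the genes with the smallest p-values in each group of the set. Genes chosen in this way are not always those that T91 moved most. Pole and Cdc6, whose responses differed widely between lines, have no fitted value without T91 here.

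With Scrib depleted, the replication genes were slightly higher as a set, by a median log2 fold change of 0.17, against -0.01 over all genes tested. No gene of the 47 passed the test, and the lowest adjusted p among them was 0.753 by edgeR with Benjamini-Hochberg adjustment (0.00706% of all genes tested were called). DESeq2 and limma-voom also called 0 of the 47, and they had 2 and 4 at an unadjusted p under 0.05. All 47 fitted values were above 0, as were 48.2% of all genes tested, and they ran from 0.03 for Prim2, a primase subunit, to 0.40 for Ccne2, a cyclin E. The 47 values come from the same 6 libraries and are not 47 separate measurements of the knockdown. The genes Cdc45, Rpa2, Fen1 and Rrm2, all higher, had an unadjusted p under 0.05. These 4 are 8.51% of the set, against 1.55% of all genes tested. Other markers differed as well. The 8 epithelial markers had a median log2 fold change of -0.18, and their median ratios by line were 0.14 (T91), -0.11 (T113) and -0.30 (T118), with 3 of 8 fitted values above 0. Of the fibroblast markers, Col1a1 and Col1a2 passed the filter on low counts. They were higher in all 3 lines, by 1.60 (standard error 0.48) and 1.19 (0.46), at levels of up to 3.53 and 1.47 CPM, both in the Scrib library of T91, and neither passed the test. The leukocyte marker Cd68, which also passed the filter, had a fitted value of -0.49 (0.30) and did not pass the test. Its ratios were 0.29, -0.87 and -0.84 in T91, T113 and T118. The part of these markers in the replication values was not tested. In these bulk cultures, a larger share of cycling cells and more replication RNA per cell cannot be told apart.

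**Figure D1:**
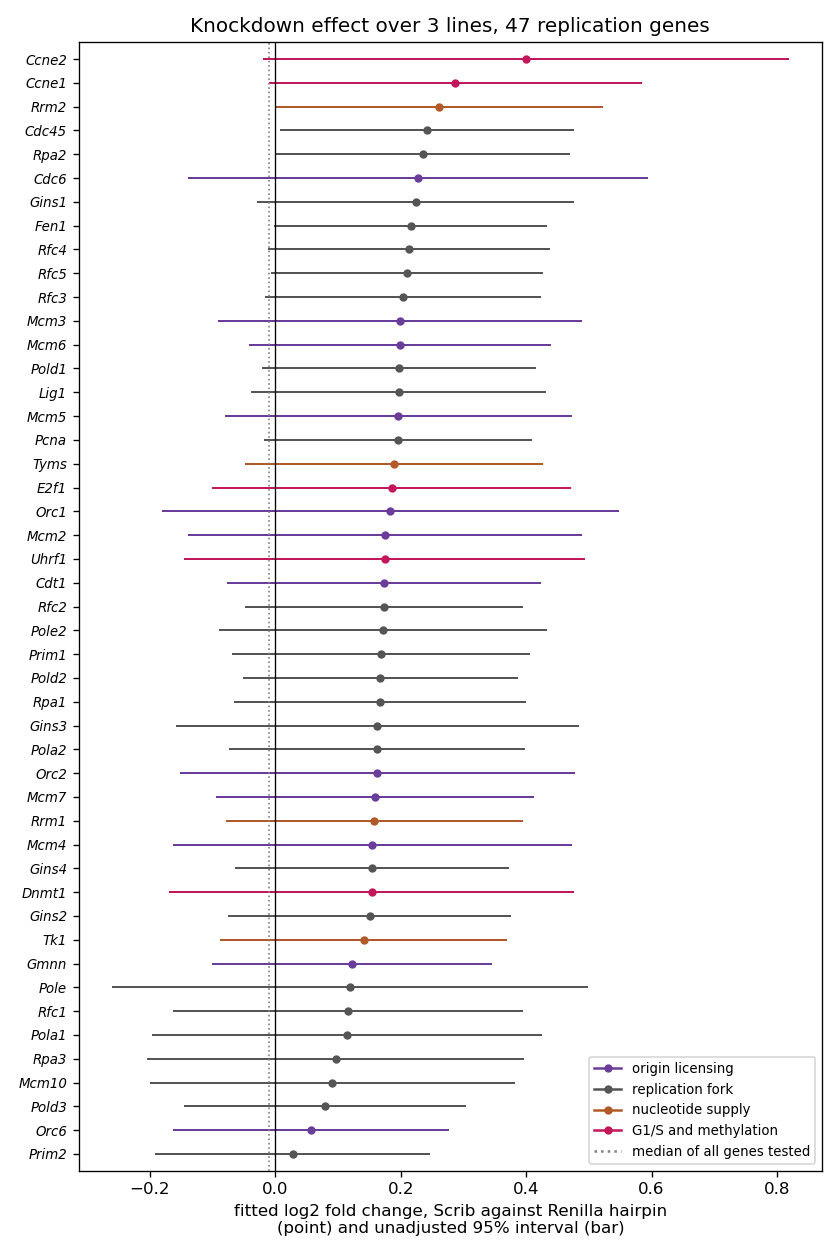
Fitted log2 fold change of each of the 47 replication genes (x axis, Scrib against Renilla hairpin, 3 lines) with its unadjusted 95% interval, genes on the y axis ordered by value and coloured by group. All points lie right of 0, between 0.03 and 0.40, and most intervals reach 0; the dotted line is the median of all genes tested, -0.01.

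Over the 3 lines the median was 0.17 for the licensing, fork and nucleotide genes alike and 0.19 for the regulators. This near-equality was of the 3 lines together. Without T91 the medians were 0.32 for licensing, 0.24 for fork, 0.25 for nucleotide and 0.35 for regulator genes. In the same order they were 0.12, 0.14, 0.14 and 0.12 without T113 and 0.11, 0.15, 0.17 and 0.11 without T118. Licensing and regulator medians were thus the larger ones without T91 and the smaller ones without T113 or T118. Scrib libraries were above the Renilla library of their own line in all 3 lines for 25 genes (53.2%, against 14.7% of all genes tested), of which 19 were fork genes, 3 nucleotide genes, 2 licensing genes (Mcm6 and Gmnn) and 1 a regulator (Ccne2). Counted in T113 and T118 alone, 46 of the 47 were higher in both (31.8% of all genes tested), and with the length trend described below removed 17 were higher in all 3 lines (15.2% of all genes tested). Every Scrib library was above every Renilla library for 10 genes (21.3%, against 2.60%). These were the helicase subunit Mcm6, the fork genes Prim1, Pole2, Pcna, Rfc4, Rfc5, Fen1, Rpa1 and Rpa2, and the thymidine kinase gene Tk1. Without T91 the same count was 38 genes, against 14.4% of all genes tested.

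The lines parted over the size of the response. In T113, 46 of the 47 ratios were above 0 (49.4% of all genes tested), the exception being Rpa3, with a median log2 ratio of 0.24. In T118, all 47 were (49.7% of all genes tested), with a median of 0.26, or 46 when libraries were scaled by DESeq2 size factors. In T91, 26 of 47 were (50.1% of all genes tested), with a median of 0.02. In T91, 2 of 12 licensing genes were above 0 and the median was -0.09, against 12 of 12 in T113 (0.27) and in T118 (0.34). Fork genes were above 0 for 20 of 26 in T91 (median 0.10), 25 in T113 (0.23) and 26 in T118 (0.22). The nucleotide genes were above 0 for 3 of 4 in T91 (median 0.04) and for all 4 in T113 and T118 (0.25 in both). Of the 5 regulators, 1 was above 0 in T91 (median -0.09) and all 5 were in T113 (0.34) and T118 (0.35). With 1 library per line and hairpin, none of these differences between lines has a test.

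**Figure D2:**
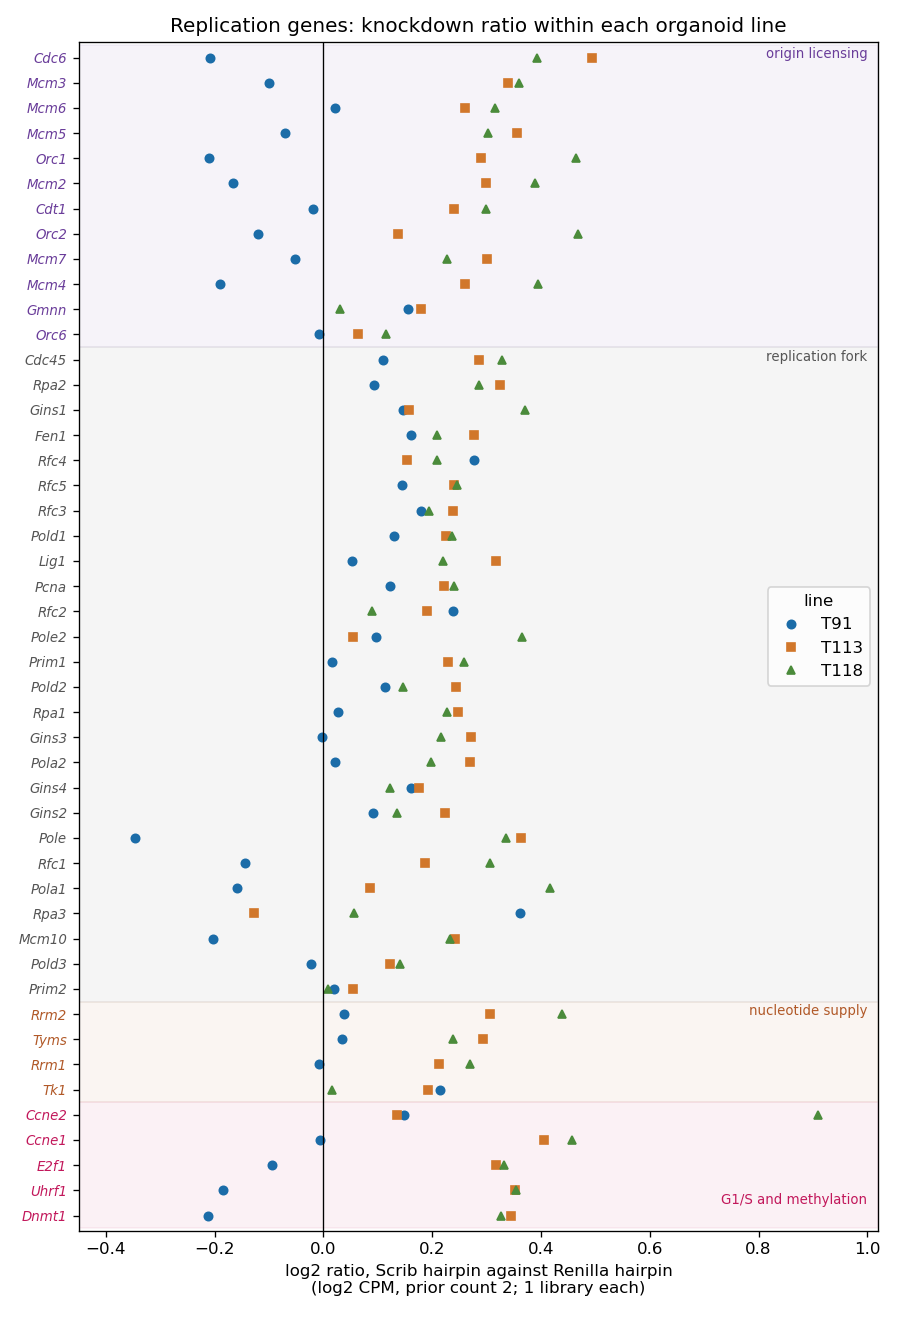
Log2 ratio of CPM between the Scrib and the Renilla library of each line (x axis) for the 47 genes (y axis, grouped and ordered by fitted fold change), 1 point per line. T113 and T118 points lie right of 0 except Rpa3 in T113, whereas 10 of the 12 licensing genes lie left of 0 in T91.

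The controls differed as well as the knockdowns. Summed over the 47 genes, the Renilla libraries of T91, T113 and T118 held 6536, 5587 and 5579 CPM, and the Scrib libraries held 6457, 6716 and 6806 CPM. The T91 control was thus the highest of the 3 controls and lay within the range of the 3 Scrib libraries, while the 3 Scrib libraries lay close together. T91 had the highest control level of the 3 lines for 38 of the 47 genes and the lowest Scrib level for 24. Licensing genes alone summed to 2293, 1888 and 1862 CPM in the Renilla libraries and to 2181, 2306 and 2322 CPM in the Scrib libraries.

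In T91 the ratio followed transcript length, in these genes as in others. Over all genes with a principal transcript in the annotation, 12252 or 86.5% of those tested, the median T91 ratio was 0.23 for transcripts under 1500 bases and 0.11 from there to under 2500. It was 0.01 from 2500 to under 3500 bases and -0.19 for 3500 and over. The replication genes above 0 in T91 were 7 of 8, 10 of 12, 6 of 15 and 3 of 12 in the same order. Spearman's rho between length and T91 ratio was -0.604 over the 47 genes and -0.569 over all genes, as a description across genes of the same 2 libraries. In T113 it was 0.302 over the 47 and -0.0776 over all, and in T118 0.328 and 0.173. The shortest and the longest transcripts among the 47 show the span. Rpa3, a subunit of the single-strand binding protein RPA, has 670 bases and had ratios of 0.36, -0.13 and 0.06 in T91, T113 and T118. Pole, the catalytic subunit of DNA polymerase epsilon, has 7163 bases and had ratios of -0.35, 0.36 and 0.34. When the length trend of all genes was subtracted within each line, 18 of 47 were above 0 in T91 (median -0.04), 46 in T113 (0.24) and 47 in T118 (0.26). On that scale 1 of 12 licensing genes and 13 of 26 fork genes were above 0 in T91. The licensing median of T91 was then -0.10 and the fork median -0.01. For 10 of the 12 licensing genes the trend subtracted in T91 was under 0.1 in size, so that their ratios could hardly move, and the part of length in them was not tested.

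**Figure D3:**
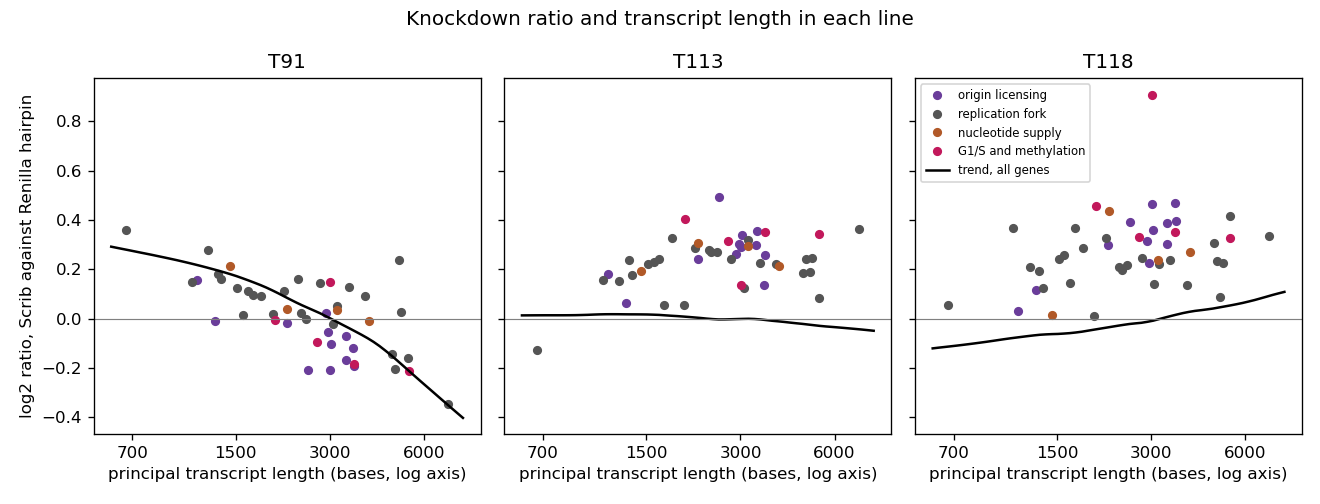
Log2 ratio of the 47 replication genes (y axis, Scrib against Renilla library) against the length of the principal transcript in bases (x axis, log scale), 1 panel per line; the black line is the smoothed trend over all genes. In T91 the trend falls from 0.29 at 600 bases to -0.40 at 8000 bases, and 18 of the 47 points lie above it. In T113 and T118 the line is flatter, and 46 and 47 points lie above it.

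Of the fits that left out a line, the one without T91 differed most. With T113 and T118 alone, 46 of 47 fitted values were above 0, the median was 0.25, and 32 of the 47 were higher at an unadjusted p under 0.05. Over all genes the share rose as well, to 7.01% of those tested in that fit. The lowest adjusted p of the 47 was then 0.0776 by edgeR with Benjamini-Hochberg adjustment, so that 0 passed, and over all alternatives this lowest adjusted p ran from 0.0776 to 1. Leaving out any 1 of the lines, 46 of 47 were above 0, the exceptions being Rpa3 without T91, Pole without T113 and Pola1 without T118.

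Among the licensing genes, the helicase subunits Mcm6, Mcm5 and Mcm3 and the loader Cdt1 had the smallest p-values. Mcm6 (ENSMUSG00000026355, chromosome 1 from 128331590 to 128359664, minus strand in GRCm38, as for all positions that follow), whose promoter holds E2F-type words at 2 sites printed above, stood at 382, 324 and 312 CPM in the Renilla libraries of T91, T113 and T118. In the Scrib libraries, in the same order, it stood at 387, 389 and 387 CPM. The 3 Scrib libraries were almost equal and above all controls, the T91 control only just below them, with a log2 fold change of 0.20 (standard error 0.10, unadjusted p of 0.0887). Mcm5 (ENSMUSG00000005410, chromosome 8 from 75109569 to 75128439, plus strand) was at 269, 232 and 247 CPM with the control hairpin and at 256, 297 and 304 CPM with the Scrib hairpin. T91 was slightly lower and T113 and T118 higher, so that the groups overlapped, and the fitted value was 0.20 (0.11). Mcm3 (ENSMUSG00000041859, chromosome 1 from 20802968 to 20820312, minus strand) went from 337, 264 and 272 CPM to 314, 333 and 349 CPM, with the T91 control again above its knockdown and a fitted value of 0.20 (0.12). Cdt1 (ENSMUSG00000006585, chromosome 8 from 122568015 to 122573554, plus strand), which brings the helicase to the origin, was at 119, 103 and 101 CPM and 117.5, 121 and 124 CPM. Its ratio was -0.02 in T91 and above 0 in the other lines, giving 0.17 (0.10). Without T91 the fitted values were 0.29 for Mcm6, 0.33 for Mcm5, 0.35 for Mcm3 and 0.27 for Cdt1. The adjusted p of these 4 genes was between 0.776 and 0.789 by edgeR with Benjamini-Hochberg adjustment.

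The other licensing genes had fitted values of the same order. They were 0.17 for Mcm2, 0.15 for Mcm4 and 0.16 for Mcm7, further ring subunits, and 0.23 for the loading ATPase gene Cdc6. The origin recognition genes Orc1, Orc2 and Orc6 had 0.18, 0.16 and 0.06, and the Cdt1 inhibitor gene Gmnn had 0.12. Their standard errors ran from 0.09 to 0.15. Cdc6 had the largest fitted value of the group and ratios of -0.21, 0.49 and 0.39 in T91, T113 and T118, higher in the latter lines and lower in T91. For Orc2, 29.8% of the exon bases overlap Nif3l1 on the opposite strand, and whether counting used strand is not stated in the labels or notes. The Nif3l1 ratios, -0.03, -0.05 and 0.05, were nearer to 0 than those of Orc2, -0.12, 0.14 and 0.47.

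Of the fork genes, Cdc45, Rpa2, Fen1 and Rfc5 had the smallest p-values. Each was higher in all 3 lines, but with the length trend removed Rpa2 was at -0.04 in T91. Cdc45 (ENSMUSG00000000028, chromosome 16 from 18780447 to 18811987, minus strand), an accessory subunit of the active helicase, stood at 48.1, 44.1 and 36.5 CPM in the controls and at 51.9, 53.8 and 45.9 CPM in the knockdowns. The T118 knockdown was below the T91 control, so the groups overlapped, although each line was higher, by 0.11, 0.29 and 0.33 on the log2 scale, and the fitted value was 0.24 (0.10). Rpa2 (ENSMUSG00000028884, chromosome 4 from 132768332 to 132778752, plus strand), which coats single-stranded DNA as part of RPA, was at 70.6, 61.4 and 66.3 CPM and 75.3, 77.0 and 80.9 CPM. All Scrib libraries were above all controls, with a fitted value of 0.24 (0.10). Fen1 (ENSMUSG00000024742, chromosome 19 from 10199132 to 10204169, minus strand), the nuclease that trims flaps between Okazaki fragments, was at 97.3, 89.0 and 96.5 CPM and 109, 108 and 112 CPM. The groups did not overlap, and the fitted value was 0.22 (0.09). An antisense gene, Gm10143, covers 78.8% of the Fen1 exon bases, but it held 56 counts over the 6 libraries against 17985 for Fen1. Rfc5 (ENSMUSG00000029363, chromosome 5 from 117378103 to 117389047, minus strand), a subunit of the clamp loader, was at 117.7, 105 and 116 CPM and 130.2, 124 and 138 CPM, again without overlap, with 0.21 (0.09). Without T91 the fitted values were 0.31 for Cdc45 and Rpa2 and 0.24 for Fen1 and Rfc5. The adjusted p was 0.753 for Cdc45, Rpa2 and Fen1 and 0.765 for Rfc5 by edgeR with Benjamini-Hochberg adjustment.

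The other fork genes can be read by complex. The clamp loader genes Rfc1, Rfc2, Rfc3 and Rfc4 had 0.12, 0.17, 0.20 and 0.21, and all but the large subunit Rfc1 were higher in every line. With the length trend removed, Rfc1 was at 0.01 in T91 and Rfc3 at -0.02. Pcna, the sliding clamp itself, stood at 392, 364 and 364 CPM in the controls and at 427, 425 and 430.4 CPM in the knockdowns, without overlap (0.20, standard error 0.09). Its T91 ratio was -0.05 with the length trend removed. Pcna is outside the rule for named genes and is given because it is a common S-phase marker. The 4 GINS genes Gins1, Gins2, Gins3 and Gins4 had 0.22, 0.15, 0.16 and 0.15, and the helicase activator Mcm10 had 0.09. For polymerase alpha and primase the values were 0.11 (Pola1), 0.16 (Pola2), 0.17 (Prim1) and 0.03 (Prim2). These hold the smallest value of the set, with Prim2 at ratios of 0.02, 0.05 and 0.01. Polymerase delta genes had 0.20 (Pold1), 0.17 (Pold2) and 0.08 (Pold3), and polymerase epsilon genes 0.12 (Pole) and 0.17 (Pole2). Pole2 shares a stretch on the same strand with Gm49384, which held 1794 counts against 5823, so its estimated counts are less certain. The ligase gene Lig1 had 0.20, Rpa1 0.17 and Rpa3 0.10. Transcripts of other genes share 23.3% of the sequence words of Pcna, 26.8% of those of Mcm7 and 24.2% of those of Uhrf1 (stretches of 31 bases). The top match was a processed pseudogene in each case. These pseudogenes held 89.8, 33.1 and 17.3 counts over the 6 libraries, against 70866, 61406 and 51402 for the genes. Counts of further genes that share words are not given here. The 6 fork genes under 0 in T91 were Mcm10, Gins3, Pola1, Pold3, Pole and Rfc1.

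All 4 nucleotide supply genes were higher in T113 and T118, and 3 of them in T91. Rrm2 (ENSMUSG00000020649, chromosome 12 from 24708241 to 24714146, plus strand), the S-phase subunit of ribonucleotide reductase, stood at 375, 256 and 300.3 CPM in the controls and at 385, 317 and 407 CPM in the knockdowns. The T113 knockdown was below the T91 control, so the groups overlapped, and the ratios of 0.04, 0.31 and 0.44 gave a fitted value of 0.26 (0.11, adjusted p of 0.753 by edgeR). With the length trend removed, Rrm2 was at -0.05 in T91. Its partner subunit gene Rrm1 (ENSMUSG00000030978, chromosome 7 from 102441695 to 102469771, plus strand) was at 392, 332 and 340.4 CPM and 389.9, 384 and 410.2 CPM. It was level in T91 and higher elsewhere, with 0.16 (0.10). Tyms (ENSMUSG00000025747, chromosome 5 from 30058202 to 30073617, minus strand), thymidylate synthase, was at 104, 82.3 and 100.3 CPM and 107, 101 and 118.3 CPM, with a fitted value of 0.19 (0.10). The salvage enzyme thymidine kinase, Tk1 (ENSMUSG00000025574, chromosome 11 from 117815526 to 117826092, minus strand), was at 135, 135 and 142 CPM and 157, 155 and 143 CPM. Its order of lines was the reverse of that of Rrm2, with ratios of 0.21, 0.19 and 0.02 and a fitted value of 0.14 (0.09). Without T91 the fitted values were 0.37 for Rrm2, 0.24 for Rrm1, 0.27 for Tyms and 0.11 for Tk1. The adjusted p of Rrm1, Tyms and Tk1 was between 0.78 and 0.8 by edgeR.

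Among the regulators, both cyclin E genes had the largest fitted values of the whole set. That rank was lost without T118 and, for Ccne1, also without T113. Whether Ccne1 kept it without T91 cannot be read here, since Cdc6 has no fitted value without T91. The Cdc6 ratios in T113 and T118 were 0.49 and 0.39, against 0.41 and 0.46 for Ccne1. Ccne1 (ENSMUSG00000002068, chromosome 7 from 38097984 to 38107534, minus strand) stood at 36.4, 29.6 and 37.9 CPM in the controls and at 36.2, 39.2 and 52.0 CPM in the knockdowns. T91 was level and T113 and T118 were higher, with 0.29 (0.12, 95% interval -0.01 to 0.58). Ccne2 (ENSMUSG00000028212, chromosome 4 from 11191351 to 11204779, plus strand) was at 22.2, 23.5 and 24.8 CPM and 24.6, 25.8 and 46.6 CPM. The T118 knockdown was far above the other 5 libraries, the ratios were 0.15, 0.14 and 0.91, the widest spread over lines among the 47, and the fitted value was 0.40 (0.17, 95% interval -0.02 to 0.82). Without T118 the fitted values of Ccne1 and Ccne2 were 0.20 and 0.14, below the 0.22 of Fen1. Without T113 that of Ccne1 was 0.23, below the 0.24 of Rrm2. The exons of Ccne2 overlap those of Ints8 on the opposite strand over 17.4% of their bases. E2f1 (ENSMUSG00000027490, chromosome 2 from 154559407 to 154569892, minus strand), the activating transcription factor, was at 59.5, 54.6 and 50.9 CPM and 55.7, 68.0 and 64.1 CPM, lower in T91 and higher in the other lines, with 0.19 (0.12). Uhrf1 (ENSMUSG00000001228, chromosome 17 from 56303321 to 56323486, plus strand), which brings the methyltransferase Dnmt1 to newly copied DNA, was at 315, 254 and 249.6 CPM and 277, 324 and 319 CPM. It had the same order of lines as E2f1, with 0.17 (0.13), and Dnmt1 had 0.15 (0.13) and ratios of -0.21, 0.34 and 0.33. Without T91 the fitted values were 0.43 for Ccne1, 0.53 for Ccne2, 0.33 for E2f1 and 0.35 for Uhrf1. The adjusted p of Ccne1, Ccne2, E2f1 and Uhrf1 was between 0.767 and 0.81 by edgeR with Benjamini-Hochberg adjustment.

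**Figure D4:**
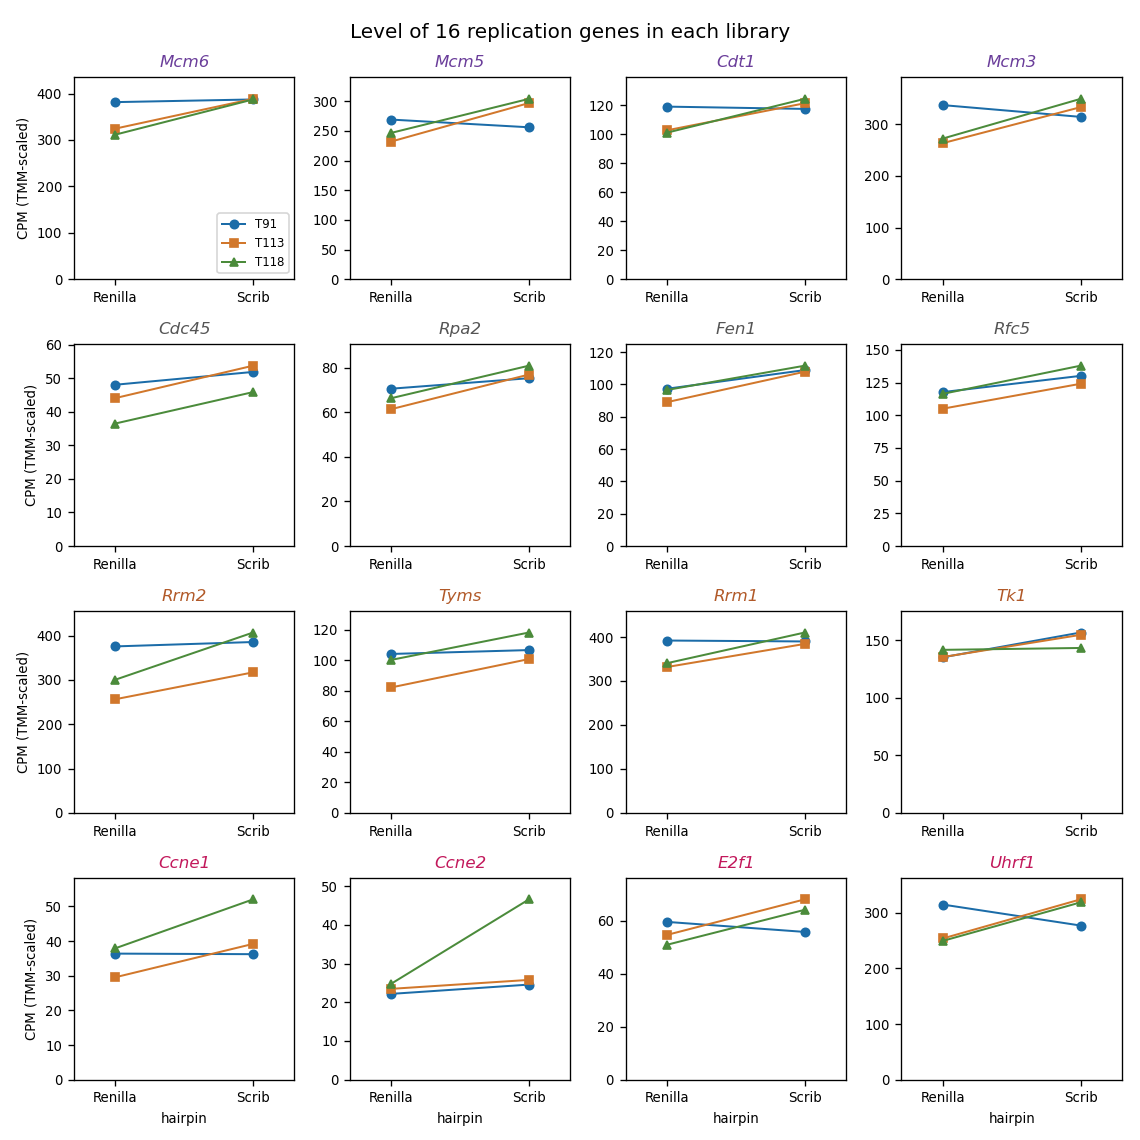
CPM (y axis, from 0) of 16 replication genes with the Renilla and the Scrib hairpin (x axis), 1 line per organoid line joining its 2 libraries, titles coloured by group. T113 and T118 lines slope up in nearly every panel, T91 lines are level or slope down for the licensing genes, and Ccne2 stands out in the Scrib library of T118.

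Set against the promoter words, the values were as follows. The 16 genes with an E2F-type word in the promoter window had a median log2 fold change of 0.18, and the 22 without had one of 0.17. In T91, T113 and T118 the medians were -0.04, 0.28 and 0.31 with the word and 0.03, 0.24 and 0.24 without, while the median transcript lengths were 3022 and 2283 bases.

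Levels of different genes are compared here as CPM per kilobase of principal transcript, averaged over the 6 libraries. Pcna was the highest at 264, followed by Rrm2 at 155, and Gins3 was the lowest at 5.15. The ring subunits Mcm2 to Mcm7, which are assembled in equal numbers, had 62.6, 103, 67.3, 79.1, 125 and 117 on this scale. The origin recognition gene Orc1 was at 8.02, under Orc2 at 20.7 and Orc6 at 47.5. The polymerase genes Pole and Pola1 were at 14.7 and 13.4, and the cyclin E genes Ccne1 and Ccne2 were at 19.3 and 9.28. The order of genes depends on the length used. Per kilobase of all annotated exons, the scale first planned, Mcm2 to Mcm7 had 30.3, 83.1, 67.3, 67.0, 77.9 and 78.3.

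Of the replication genes, 1 passed the test for a difference in level between the lines. In this test of both line terms, 1 of 47 passed (2.13%), against 14.0% of all genes tested, and that gene was Gins2 (ENSMUSG00000031821, chromosome 8 from 120578633 to 120589304, minus strand), a GINS subunit. Gins2 stood at 42.1, 46.2 and 29.9 CPM in the Renilla libraries of T91, T113 and T118 and at 44.9, 53.9 and 32.9 CPM in the Scrib libraries. Both T118 libraries were below all others, with an adjusted p of 0.0255 for the line by edgeR with Benjamini-Hochberg adjustment. T118 was lower than T91 by a log2 difference of -0.47 (standard error 0.11, adjusted p of 0.0494 by edgeR) and than T113 by -0.67 (0.11, adjusted p of 0.0186). The line call was lost without T113 and without T118, when 0 of 47 passed, against 8.43% and 11.3% of all genes tested. Without T91 4 passed, which were Gins2, Orc2, Rrm2 and Ccne1, against 23.0% of all genes tested. The gene Gse1 on the opposite strand covers 67.3% of the Gins2 exon bases. Its mean level was 47.6, 65.2 and 58.8 CPM in T91, T113 and T118. Both genes were highest in T113, whereas the lowest line was T91 for Gse1 and T118 for Gins2. The part of Gse1 in the Gins2 counts was not tested. Next by p were Orc6 (ENSMUSG00000031697, chromosome 8 from 85299632 to 85308278, plus strand), at 71.3, 51.5 and 57.2 CPM in the controls and 70.9, 53.8 and 62.0 CPM in the knockdowns, and Gmnn (ENSMUSG00000006715, chromosome 13 from 24751845 to 24761923, minus strand), at 74.2, 59.8 and 61.0 CPM and 82.6, 67.7 and 62.3 CPM. T91 was the highest line for both, and neither passed (adjusted p of 0.0941 and 0.145 by edgeR).

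Other genes of replication and of the G1 to S step had the same lean. Of 47 further genes on this list, 40 had fitted values above 0 (85.1%, against 48.2% of all genes tested) and 7 below. The median was 0.15, and 0 passed edgeR's test. The median ratio of the list was 0.04 in T91 and larger in T113 (0.20) and T118 (0.27). At an unadjusted p under 0.05 by edgeR there were 6, all higher (12.8%, against 1.55% of all genes tested). Of these, Cdkn2c, an inhibitor of Cdk4 and Cdk6, was at 34.4, 39.9 and 35.7 CPM in the controls and 39.8, 48.8 and 43.8 CPM in the knockdowns (0.27, standard error 0.09). Tipin, a fork protection factor, was at 68.2, 47.6 and 53.5 CPM and 75.6, 57.6 and 66.7 CPM (0.25, 0.09). These 2 overlapped between groups, whereas Asf1b and Dut did not. Over the list, every Scrib library was above every Renilla library for 4 genes (8.51%, against 2.60% of all genes tested). Asf1b, a histone chaperone, was at 64.0, 57.8 and 66.6 CPM and 73.2, 68.5 and 80.5 CPM (0.24, 0.09). Dut, which keeps uracil out of DNA, was at 163, 134 and 159 CPM and 182, 167 and 189 CPM (0.24, 0.09). The 7 below 0 were Orc3, Pold4, Ccnd2, Rb1, Cdkn1a, Cdkn1b and Cdkn2a. Cdkn1a, which encodes the cyclin-dependent kinase inhibitor p21 and is singled out here after its values were seen, had the lowest value of the list at -1.03 (0.47, 95% interval -2.31 to 0.25, adjusted p of 0.776 by edgeR). It stood at 21.9, 46.9 and 46.8 CPM in the controls and at 24.2, 20.7 and 11.2 CPM in the knockdowns. It was thus lower in T113 and T118, with ratios of -1.18 and -2.06, and not in T91, with one of 0.14.

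Genes of mitosis had a similar median. Of 25 on the list, all 25 had fitted values above 0 (48.2% of all genes tested). Their median was 0.17, and 0 passed edgeR's test. At an unadjusted p under 0.05 by edgeR there were 5, all higher (20%, against 1.55% of all genes tested and 8.51% of the 47). Every Scrib library was above every Renilla library for 10 (40%, against 2.60% and 21.3%). In T91, 16 were above 0 (64%, against 50.1% of all genes tested). All 25 were above 0 in T113 and in T118 (49.4% and 49.7% of all genes tested). Mki67, the proliferation marker known as Ki-67, was at 963, 963 and 839.7 CPM in the controls and at 721, 1118 and 1111 CPM in the knockdowns. It was lower in T91 and higher in T113 and T118, with ratios of -0.42, 0.22 and 0.40, and its fitted value of 0.07 (0.16) was below 0 when either T113 or T118 was left out. With the length trend removed it was 0.1998, and without T91 it was 0.31.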

How the data were processed

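Messenger RNA libraries of 6 organoid cultures were analysed, 3 lines with 2 hairpins each. For each library the authors deposited a table of estimated counts by Ensembl gene. The submitters' processing notes name Salmon 1.4.0, DESeq 2 and GRCm38 (mm10). How transcripts were annotated and summed, and whether strand was used, is not given in the sources used here. Salmon shares reads among similar transcripts, so near-copies can trade counts. The deposited counts were not scaled for depth.

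Counts were rounded to whole numbers and tested in R 4.3.3 with the two-sided, robust quasi-likelihood F-test of edgeR 4.0.16. The model had terms for line and hairpin, TMM scaling, filterByExpr (minimum count 10) and Benjamini-Hochberg adjustment over the 14169 genes left, with a threshold of 0.05. It left 2 residual degrees of freedom, with a common biological coefficient of variation of 15.5%. Sharing of the error over genes added a median of 4.43 prior degrees of freedom. Ratios within a line used log2 CPM with a prior count of 2. Symbols (54131 of 54453 identifiers matched, 322 did not), positions and principal transcripts came from a GENCODE annotation of GRCm38, and promoters from RefSeq (GRCm38.p6). The fit was tested on simulated data.

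Each line received both hairpins, so the line is the pairing. Over all genes, the deviations of the Renilla and Scrib libraries from their group means had a correlation within T91, T113 and T118 of 0.621, 0.666 and 0.662. Over the 47 genes it was 0.194, 0.549 and 0.674.

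The members, gene lists and tests were chosen with earlier results of these data known, so list counts and medians are descriptions. Values in every library are given for the 4 genes of each group with the smallest unadjusted p, the 3 with the smallest line p, the one with the widest spread of ratios, 4 of the further replication genes, Scrib and Mki67. Pcna and Cdkn1a were added outside this rule. Alternatives were a fit without the line, DESeq2 size factors, library totals, no filter, a higher minimum (average CPM 5), DESeq2 1.42.0, limma-voom (limma 3.58.1), leaving out each line, a prior count of 0.5 and, chosen after seeing the data, removal of the length trend (lowess, span 0.3) and counts in T113 and T118 alone.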

Additional observations from a re-analysis of the deposited data

Results flagged for a closer look

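Some ratios pointed one way in 1 line and the other way in another. With 1 library per line and hairpin the difference was not tested in any of these cases, and for single genes a ratio of at least 0.1 in size was asked of 1 line in each direction (rounded), a value chosen after seeing the data. The licensing median was -0.08615 in T91 and the regulator median -0.09466, while both were above 0 in T113 and T118.

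For 12 of the genes that met this rule on size, the ratio was below 0 in T91 and above 0 in both other lines. Further genes had the same signs with a smaller T91 ratio, such as Mcm5 at -0.07, 0.36 and 0.30 in T91, T113 and T118. The range of the log2 ratio over the lines was 0.7104 for Pole, 0.7027 for Cdc6, 0.6753 for Orc1, 0.5891 for Orc2 and 0.5852 for Mcm4. It was 0.5759 for Pola1, 0.5562 for Dnmt1, 0.5553 for Mcm2, 0.5376 for Uhrf1, 0.4596 for Mcm3, 0.4502 for Rfc1 and 0.4439 for Mcm10. Rpa3, with the shortest transcript of the set, had a range of 0.4885 in the other direction, above 0 in T91 and below 0 in T113. The T91 ratios moved with transcript length, and the values without that trend stand with the results above.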

How the results depend on the processing

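The list medians kept their sign under the 11 alternatives to the fit, at 0.13 to 0.25 for all 47 genes, 0.11 to 0.32 for licensing, 0.14 to 0.24 for fork, 0.14 to 0.25 for nucleotide and 0.11 to 0.35 for regulator genes. The highest value of each was without T91. None of the 47 passed in any of them. Genes higher at an unadjusted p under 0.05, 4 in the reported fit, numbered 0 in the fit without the replicate block, 0 with the stricter filter, 1 with DESeq2 size factors, 1 with library totals, 2 with DESeq2 and 0 to 32 with a line left out (32 without T91). Without that block 1 gene of all tested was called, as in the reported fit, and the number of the 47 above 0 was 47. Over all genes the count of calls, 1 in the reported fit, was 64 without the filter, 63 with DESeq2, 8 with limma-voom and 9 to 94 with a line left out. The line test called 1320 genes with the stricter filter and 1209 to 3305 with a line left out, against 1989, and 0 to 4 of the 47, against 1. For the 25 genes given in every library by the rule above, which leaves out Pcna and Cdkn1a, 273 of 275 fitted values kept direction and call. The other two were of Mki67, 0.07 in the reported fit, which was 0.31 without T91, -0.0037 without T113, -0.10 without T118 and 0.1998 with the length trend removed. With the length trend removed the T91 medians went from 0.02 to -0.0386 for all 47 genes and from 0.10 to -0.005902 for the fork genes. Filters and left-out lines change the number of genes or libraries in the fit, and beyond that the cause was not tested. Each of the 47 genes held at least 316 counts in every library, and the fit had 2 residual degrees of freedom.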
